A study of Mus musculus with 14 samples.

Results

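The genes that make, degrade and read out cyclic AMP were examined in spleen T cells of mice with chronic myeloid leukemia (CML). The set held 10 of the 24091 genes in the deposited table, chosen by symbol: the adenylyl cyclases Adcy9, Adcy7, Adcy3 and Adcy6, the phosphodiesterases Pde3b, Pde4b, Pde4d and Pde7a, and the transcription factors Creb1 and Crem. The choice set no limit on expression, and Adcy9 and Pde3b were included because they are reported targets of miR-142 in T cells. All 10 were listed once and had enough reads for a test.

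Adenylyl cyclases are membrane enzymes that turn ATP into cyclic AMP when a receptor coupled to the G protein Gs is engaged. Cyclic AMP activates protein kinase A (PKA) and the exchange factors called EPAC, and PKA phosphorylates CREB, which then switches on its target genes. In T cells this messenger restrains signaling from the antigen receptor, and phosphodiesterases remove it again by hydrolysis.

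T cells were sorted from the spleens of 8 Mir142+/+BCR-ABL mice, a model of chronic phase disease (CP CML), and 6 Mir142-/-BCR-ABL mice, a model of blast crisis (BC CML). Every mouse carried the SCLtTA and BCR-ABL transgenes on a C57Bl/6j background, was 6 to 10 weeks old, male or female, and had BCR-ABL switched on for 3 weeks by withdrawal of tetracycline, with no other treatment. In this model a stem cell leukemia (SCL) gene enhancer directs the tTA activator, and so BCR-ABL, to blood stem and progenitor cells. No sample analyzed here came from a mouse free of BCR-ABL. Mir142 was deleted in the whole animal, so a change inside the T cells and a change in the leukemia around them cannot be told apart, and the library names carry a different prefix in each group, so any difference between the cohorts cannot be told apart from the genotype.

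The libraries held between 15703702 and 19914531 reads in CP CML and between 16145537 and 19399720 reads in BC CML. Mir142, the deleted gene, had 302 to 650 reads in each CP CML mouse and 0 in each BC CML mouse. T cell identity markers were high in both groups, with a summed level of 2781 to 3207 CPM (reads scaled to the library total, with TMM factors applied) in CP CML and 3273 to 3590 in BC CML. Of the 8 in the table, Cd3g, Cd6, Cd2 and Cd5 were higher in BC CML (log2 fold changes of 0.59, 0.57, 0.33 and 0.29), Cd247 was lower (-0.32), and 3 did not pass the test. All 7 naive T cell markers were lower in BC CML, with a summed level of 4890 to 6238 CPM in CP CML and 2683 to 3852 in BC CML. Of 12 activated, effector or memory markers, 10 were higher, Prf1 was lower (means of 54.8 and 48.4 CPM) and Ifng did not pass. Cd4 was lower, with means of 404 CPM in CP CML and 243 in BC CML, Cd8a was higher (689 and 1263 CPM), and Cd8b1 did not pass (436 and 457 CPM). Of 5 regulatory T cell markers, Foxp3 (94.2 and 28.5 CPM) and Ctla4 (65.5 and 25.9 CPM) were lower, Ikzf2 and Tnfrsf18 were higher, and Il2ra did not pass. Of the markers of other cells, 10 of 11 myeloid genes were higher (summed level 73.7 to 456 CPM in CP CML, 565 to 1392 in BC CML), as were 5 of 5 NK cell genes (127 to 164 against 410 to 551 CPM) and 5 of 6 B cell genes (54.7 to 163 against 95.9 to 476 CPM). Of 5 tested erythroid and platelet genes, 1 was higher, 1 was lower and 3 did not pass. Eomes stands in both the NK and the effector list and, at means of 77.6 CPM in CP CML and 257 in BC CML, was the larger part of the NK sum. None of the marker genes listed in the table was at 0 in every mouse, and the part of these cells in the results was not tested beyond fits that took the myeloid or the naive marker score (mean log2 CPM of the list) as a covariate. With them 38.9% and 12.9% of all genes tested were called, in place of 65.2%, and the scores follow the groups (correlations of 0.824 and -0.953 over the 14 mice). The shift between CD4, CD8 and regulatory markers was not fitted.

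Of the 10 genes, 4 passed the quasi-likelihood test of edgeR (threshold 0.05 on the adjusted p) with a higher level in BC CML, 1 passed with a lower level, and 5 did not pass. Over the 12248 genes tested, 65.2% passed (32.6% higher and 32.7% lower), so a count of 5 in 10 does not exceed the background. The genes that rose were Adcy9, Pde3b, Pde7a and Creb1, and the gene that fell was Crem. In each of these 5 genes the values of the groups did not overlap, which held for 36.9% of all genes tested (BC CML above in 19.3%, below in 17.6%). Adcy9 alone passed with a log2 fold change of at least 1 in size, as did 10.1% of all genes upward and 2.87% downward. The median log2 fold change of the 10 genes was 0.10, against -0.01 for all genes tested. In bulk samples, fewer cells of a type and less RNA per cell cannot be told apart.

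**Figure D1:**
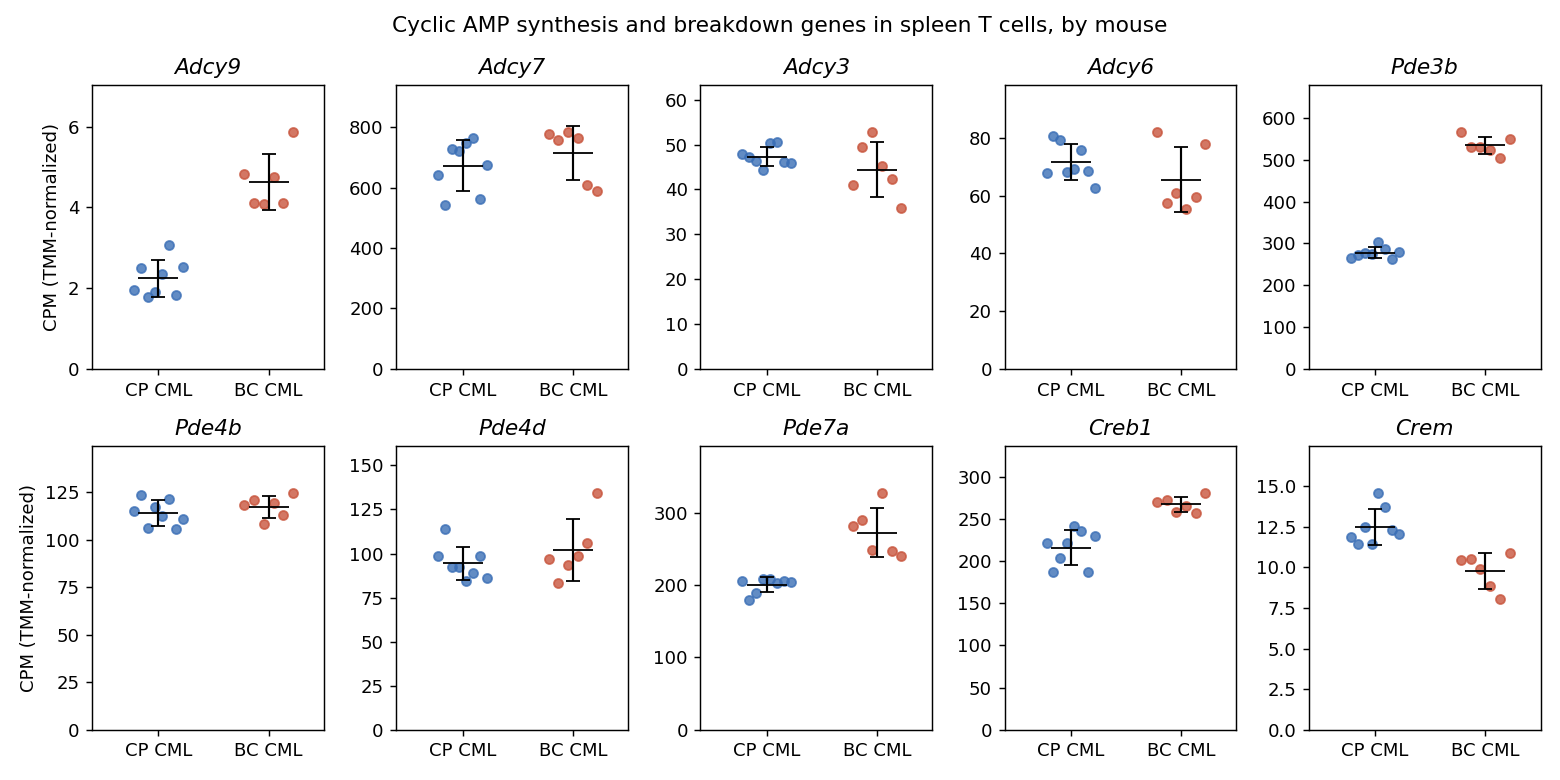
Normalized level (CPM, vertical axis from 0) of each gene in each mouse, with 8 CP CML mice (blue) and 6 BC CML mice (red); the horizontal line is the group mean and the bar its SD. Adcy9, Pde3b, Pde7a and Creb1 are higher in every BC CML mouse than in every CP CML mouse, Crem is lower, and the other 5 genes overlap.

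The sequences of miR-142 and of its matches in these genes are shown first, because Mir142 is the deleted gene. A microRNA recognizes an mRNA mainly through its seed, bases 2 to 8, given in capitals in the RefSeq sequences of both arms (GRCm38.p6, chromosome 11, plus strand, 87756867 to 87756887 for the 5p arm and 87756903 to 87756925 for the 3p arm).
mmu-miR-142a-5p: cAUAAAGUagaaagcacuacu
mmu-miR-142a-3p: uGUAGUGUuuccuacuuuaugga
The longest 3′UTR of each gene in the GENCODE vM21 annotation, which is on the genome build of the counts (mm10), was searched on the transcript strand for an 8mer (ACTTTATA for 5p, ACACTACA for 3p), for the first 7 of these bases without the last A (7mer-m8), and for the last 7 without the first base (7mer-A1).

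Matches were found in 5 of the 10 genes, namely Pde3b, Pde7a, Creb1, Adcy7 and Pde4b, and at least 1 match was present in 30.7% of the 11503 tested genes with a 3′UTR in the annotation. Of the 5 genes with a match, 3 rose and 2 did not pass the test. Of the 5 without a match, 1 rose (Adcy9), 1 fell (Crem) and 3 did not pass. Among the tested genes with a 3′UTR in the annotation, 41.4% of those with a match and 30.0% of those without were higher in BC CML. The shares that were lower were 27.2% and 35.3%. A match does not show that a site is used. The 3′UTRs searched in the 10 genes had 369 to 7170 bases, and the matches were not adjusted for this length.

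Pde3b held matches to both arms, and its 3p and 5p matches share 1 base. The capitals in the sequences that follow mark the matched bases, read 5′ to 3′ on the strand of the gene.
Pde3b, 3p 7mer-A1, chr7:114537808-114537814, plus strand: tttaatgaatCACTACActtt
Pde3b, 5p 7mer-m8, chr7:114537814-114537820, plus strand: gaatcactacACTTTATttat
Pde3b, 5p 7mer-A1, chr7:114537619-114537625, plus strand: tcttcttatcCTTTATAcatt
The only 8mers among the 10 genes were a 3p match in Pde4b, which did not pass the test, and a 5p match in Creb1, which rose. An 8mer of 3p was present in 3.04% and an 8mer of 5p in 5.22% of the tested genes with a 3′UTR. Of all genes with a 3p 8mer, 57.4% were higher and 15.1% lower in BC CML, and of those with a 5p 8mer 41.8% and 27.0%, against 33.5% and 32.8% of all tested genes with a 3′UTR.
Pde4b, 3p 8mer, chr4:102606797-102606804, plus strand: aaaataaacaACACTACAtttg
Creb1, 5p 8mer, chr1:64597959-64597966, plus strand: ttgggagtaaACTTTATAtgta
Pde7a had 1 match to 3p near the start of its 3′UTR, at bases 384 to 390 of 4528, and 2 to 5p near its end. Adcy7 had 2 matches to 3p and 1 to 5p.
Pde7a, 3p 7mer-A1, chr3:19227246-19227252, minus strand: ccgtcccttcCACTACAttct
Adcy7, 3p 7mer-A1, chr8:88327899-88327905, plus strand: tttggacttgCACTACAggat
The search of Adcy9 was limited, since its longest 3′UTR in GENCODE vM21 has 369 bases and ends 2643 bases before the end of the gene in the deposited table. For Pde4d the table reaches 2508 bases further. These stretches were not searched, because no genome sequence was used.

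Adcy9, a cyclase of broad tissue distribution that differs from most others in its weak response to forskolin, had the largest log2 fold change of the 10 genes and the lowest level. It lies at chr16:4284886-4420498 of mm10 (minus strand). Its values were between 1.79 and 3.08 CPM in CP CML (median 2.16) and between 4.09 and 5.86 CPM in BC CML (median 4.44). Every BC CML mouse was thus above every CP CML mouse. The log2 fold change was 1.05 (SE 0.15, edgeR adjusted p = 5.93e-06), from 2.24 ± 0.45 CPM (SD, n = 8) to 4.63 ± 0.69 CPM (SD, n = 6). These values rest on 30 to 57 reads per CP CML library and 66 to 114 reads per BC CML library. The spread within groups was close to what counting alone gives, with a coefficient of variation of 20.1% against 16.1% from counting error in CP CML and 14.9% against 10.9% in BC CML. With the myeloid marker score as a covariate the log2 fold change of Adcy9 was 0.69 (adjusted p = 0.038), and with the naive T cell score it was 1.04 with an SE of 0.49 (adjusted p = 0.181).

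Adcy7, a cyclase typical of blood cells, was the most strongly expressed of the 10 genes per length of transcript and did not pass the test. It lies at chr8:88272403-88329962 of mm10 (plus strand). Its values were between 543 and 764 CPM in CP CML (median 699) and between 589 and 783 CPM in BC CML (median 761), so the groups overlapped over nearly their whole range. The log2 fold change was 0.08 (95% interval -0.11 to 0.27, edgeR adjusted p = 0.421), so a rise above 1.21-fold lies outside the interval of this fit. With the myeloid score as a covariate the log2 fold change of Adcy7 was 0.33 with an SE of 0.14 (edgeR adjusted p = 0.0713). With the naive score it was -0.12. The mice of each group differed more than counting error allows, with a coefficient of variation of 12.4% in CP CML, where counting alone gives 0.93%. In BC CML 4 mice were between 759 and 783 CPM and the other two, mice 5 and 6, were at 609 and 589 CPM.

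Adcy3 and Adcy6, further membrane cyclases, also did not pass the test. Adcy3 was between 44.4 and 50.5 CPM in CP CML (median 46.7) and between 35.9 and 52.7 CPM in BC CML (median 43.7), with a log2 fold change of -0.09 (95% interval -0.24 to 0.05, edgeR adjusted p = 0.250). Its mice spread more in BC CML, with a coefficient of variation of 13.6% against 4.61% in CP CML. Without BC CML mouse 6 the log2 fold change of Adcy3 was -0.04, and without mouse 3 it was -0.15 (adjusted p = 0.0506). The 3′ end of Adcy3 overlaps Cenpo on the opposite strand, whose mean was 18.7 CPM in CP CML and 16.1 CPM in BC CML, and the strand setting of the counting is not known. Adcy6 was between 62.8 and 80.6 CPM in CP CML (median 68.9) and between 55.4 and 81.9 CPM in BC CML (median 60.1), with a log2 fold change of -0.13 (95% interval -0.32 to 0.06, edgeR adjusted p = 0.224). In BC CML 4 mice were between 55.4 and 60.8 CPM and mice 1 and 6 were at 81.9 and 77.9 CPM. Without BC CML mouse 1 the log2 fold change of Adcy6 was -0.20 and passed the threshold (adjusted p = 0.0348), so that 2 of the 10 genes were then called lower.

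Among the phosphodiesterases, Pde3b showed the clearest difference. Its product is inhibited by cyclic GMP and is a target of insulin and AKT signaling. It lies at chr7:114415254-114537937 of mm10 (plus strand), and its values were between 262 and 304 CPM in CP CML (median 276) and between 504 and 565 CPM in BC CML (median 530). The lowest BC CML mouse was therefore well above the highest CP CML mouse. The log2 fold change was 0.94 (SE 0.04, 95% interval 0.86 to 1.02, edgeR adjusted p = 7.75e-13), from 278 ± 13.3 CPM (SD, n = 8) to 534 ± 21.2 CPM (SD, n = 6). Within each group the mice were tightly spaced, with a coefficient of variation of 4.80% in CP CML and 3.97% in BC CML. Pde3b was the one gene of the 10 that passed the threshold in all 23 alternative fits, with a log2 fold change of 0.96 (adjusted p = 2.72e-08) with the myeloid score and 0.88 (adjusted p = 0.000205) with the naive score as a covariate.

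Pde7a, which encodes a phosphodiesterase specific for cyclic AMP, rose less. It lies at chr3:19223109-19311322 of mm10 (minus strand). Its values were between 180 and 209 CPM in CP CML (median 205) and between 240 and 328 CPM in BC CML (median 265), and the groups did not overlap. The log2 fold change was 0.44 (SE 0.06, edgeR adjusted p = 7.73e-06). The BC CML mice spread more than those of CP CML, with a coefficient of variation of 12.4% against 5.26%, and mouse 4 was highest at 328 CPM. With the naive score as a covariate the log2 fold change of Pde7a was 0.19 (adjusted p = 0.588), and with the myeloid score it was 0.49 (adjusted p = 0.00242).

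Pde4b and Pde4d, members of the PDE4 family whose inhibitors are used against inflammation, did not pass the test. Pde4b was between 106 and 124 CPM in CP CML (median 114) and between 108 and 125 CPM in BC CML (median 119). Its log2 fold change was 0.04 (95% interval -0.05 to 0.13, edgeR adjusted p = 0.424), so the interval leaves out a rise above 1.10-fold. Pde4b holds the 3p 8mer shown above, and use of that site was not tested. The span listed for Eno1b on the same strand covers that of Pde4b, and Eno1b had a mean of 2.75 CPM in CP CML and 2.82 CPM in BC CML. Pde4d was between 84.2 and 114 CPM in CP CML (median 92.4) and between 83.4 and 134 CPM in BC CML (median 97.6), with a log2 fold change of 0.11 (95% interval -0.08 to 0.31, edgeR adjusted p = 0.285). The highest BC CML value of Pde4d came from mouse 6, and the next was 106 CPM in mouse 5. Without mouse 6 the log2 fold change of Pde4d was 0.02 (adjusted p = 0.831). With the naive score as a covariate it was 0.55 with an SE of 0.30 (edgeR adjusted p = 0.257), and with the myeloid score -0.03.

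The CREB factors moved in opposite directions. Creb1, the PKA substrate that activates transcription, lies at chr1:64532804-64604548 of mm10 (plus strand). It was between 187 and 242 CPM in CP CML (median 221) and between 257 and 281 CPM in BC CML (median 268), without overlap, and its log2 fold change was 0.31 (SE 0.06, edgeR adjusted p = 0.000113). Here the CP CML mice spread more, with a coefficient of variation of 9.78% against 3.36% in BC CML. With the naive score as a covariate the log2 fold change of Creb1 was -0.004 with an SE of 0.17 (adjusted p = 0.993), and with the myeloid score it was 0.30 (adjusted p = 0.0296).

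Crem, whose products include the repressor ICER made from an internal promoter, lies at chr18:3266354-3337589 of mm10 (minus strand). It was between 11.4 and 14.6 CPM in CP CML (median 12.2) and between 8.07 and 10.9 CPM in BC CML (median 10.2), so the highest BC CML value lay under the lowest CP CML value. The log2 fold change was -0.35 (SE 0.08, edgeR adjusted p = 0.00131). Counts per gene do not separate the activator and repressor forms of Crem. The log2 fold change was -0.36 (adjusted p = 0.0688) with the myeloid score as a covariate and -0.47 (adjusted p = 0.279) with the naive score.

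**Figure D2:**
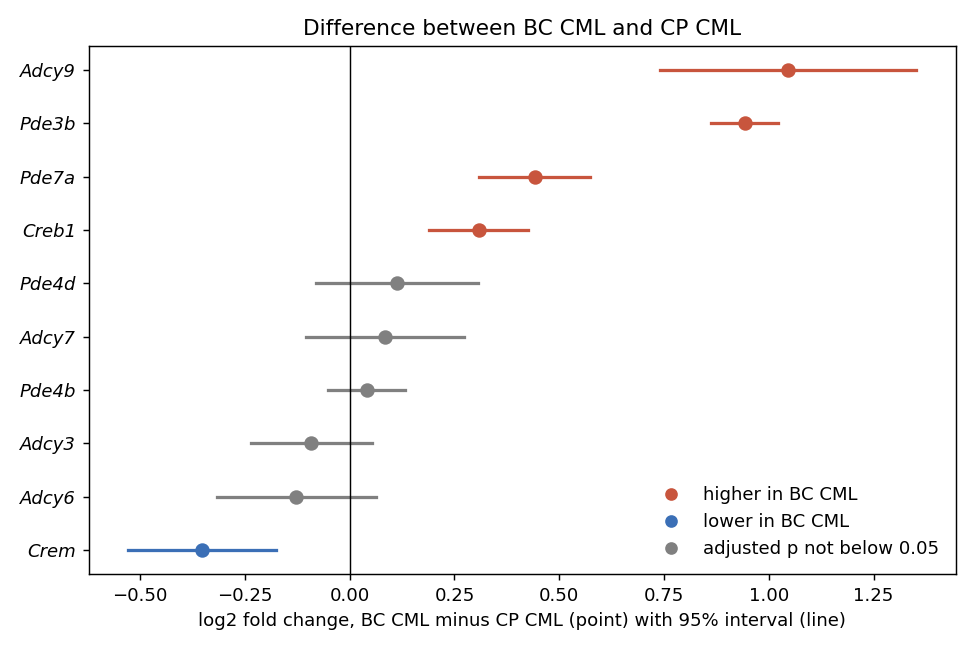
Log2 fold change of BC CML against CP CML (horizontal axis) for each gene, with its 95% interval as a line; red marks genes that rose, blue genes that fell (adjusted p below 0.05) and gray the others. Adcy9 and Pde3b lie near 1, with the wider interval for Adcy9, and Crem is the one gene whose interval lies below 0.

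To compare genes with each other, the normalized level was divided by the transcript length listed in the table (CPM per kb). In CP CML the order was Adcy7 (107 ± 13.3 CPM per kb; SD, n = 8), Pde3b (52.7 ± 2.53), Pde7a (31.0 ± 1.63), Creb1 (25.7 ± 2.51), Pde4b (13.1 ± 0.76), Adcy6 (11.2 ± 0.99), Pde4d (10.8 ± 1.08), Adcy3 (10.1 ± 0.46), Crem (2.63 ± 0.24) and Adcy9 (0.29 ± 0.06). The ranges over the mice overlapped between Pde7a and Creb1 and between each neighboring pair from Pde4b to Adcy3, so their order is not set. In BC CML the level of Pde3b was 101 ± 4.02 CPM per kb (SD, n = 6) and overlapped that of Adcy7, at 113 ± 14.1, whereas the ranges of these genes were apart in CP CML. Adcy9 was last in both groups, at 0.59 ± 0.09 CPM per kb in BC CML.

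Within the 4 cyclases, Adcy7 made up 83.1 ± 2.03% of the summed CPM per kb in CP CML and 84.7 ± 1.63% in BC CML. Adcy9 made up 0.22 ± 0.04% and 0.45 ± 0.11%, and the summed level of the 4 genes was 128 ± 13.4 CPM per kb in CP CML and 133 ± 14.7 in BC CML. The difference in Adcy9 was thus small against the total. The 4 phosphodiesterases had a summed level of 108 ± 2.62 CPM per kb in CP CML (range 104 to 112) and 169 ± 6.79 in BC CML (range 159 to 175). The share of Pde3b in this sum was 49.0 ± 1.46% in CP CML and 60.1 ± 1.81% in BC CML, and the share of Pde4b was 12.2 ± 0.64% and 7.99 ± 0.28%. These shares depend on which genes are counted and were not tested.

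**Figure D3:**
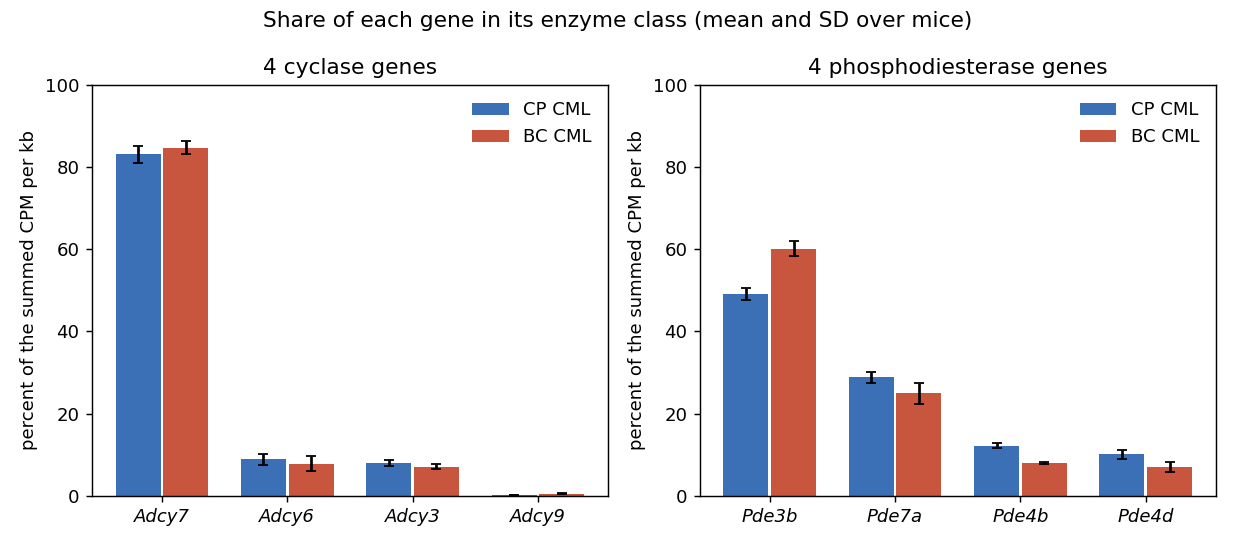
Share of each gene in the summed CPM per kb of the 4 cyclase genes (left) and the 4 phosphodiesterase genes (right), as the mean over 8 CP CML (blue) and 6 BC CML mice (red) with the SD as a bar. Adcy7 dominates the cyclases in both groups, and Pde3b goes from 49.0% to 60.1% of the phosphodiesterases.

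The genes whose profiles over the 14 mice were most like those of Adcy9 and Pde3b were found by the root mean square difference between log2 CPM values, each gene centered on its own mean, among 9063 genes with a mean log2 CPM of at least 3. This distance includes the difference between the groups, so it picks genes of a like fold change. For Adcy9 these were Pak1 (0.157), Crk (0.170) and Gpr174 (0.186), with log2 fold changes of 1.03, 1.02 and 0.92. For Pde3b they were Birc2 (0.063), Xpr1 (0.064) and Slc37a3 (0.072), with log2 fold changes of 0.92, 0.85 and 1.03. The distances are smaller for Pde3b, whose own counts are far higher than those of Adcy9.

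The rest of the pathway was described with 86 further genes in 8 lists, of which 65 had enough reads for a test. Among them 26 rose and 18 fell, or 67.7% called against 65.2% of all genes, with a median log2 fold change of 0.13. Of all genes tested, 32.6% were higher and 32.7% lower in the main fit. With the myeloid and the naive score as a covariate, 38.9% and 12.9% of all genes were called, of which 49.4% and 63% were higher. Of the other 6 cyclases, Adcy1 was the one tested, and it fell by 1.13 on the log2 scale (SE 0.24, edgeR adjusted p = 0.000413) from 1.48 ± 0.36 to 0.68 ± 0.23 CPM. In the fit with the naive score Adcy1 had a log2 fold change of -0.87 with an SE of 0.82 (adjusted p = 0.53), so 0 were called lower, and with no filter on low counts 2 of these cyclases were lower and 1 higher. Adcy2 and Adcy8 had 0 reads in every mouse, and Adcy4, Adcy5 and Adcy10 had at most 8 reads in a library.

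Of the 7 tested phosphodiesterases outside the 10 genes, 2 were higher and 3 lower. The count of higher genes was 5 with no filter on low counts, 1 with the filter at 1 CPM, 1 with the myeloid score and 0 with the naive score as a covariate, and the lower count was 1 with the naive score. Pde1b, a calmodulin-dependent enzyme, fell by 1.12 on the log2 scale (SE 0.06, edgeR adjusted p = 5.82e-11) from 38.3 ± 2.76 CPM (SD, n = 8) to 17.6 ± 1.53 CPM (SD, n = 6), and Pde11a fell by 1.00 (SE 0.17). Pde4a, of the same family as Pde4b and Pde4d, rose by 1.65 (SE 0.19, edgeR adjusted p = 7.14e-07) from 2.39 ± 0.31 to 7.54 ± 3.07 CPM. Pde2a, named after its values were seen as the most read gene of this list, fell by 0.16 on the log2 scale (SE 0.05) from 299 ± 14.7 to 267 ± 23.3 CPM, so the summed level of the 4 genes above does not cover all phosphodiesterase mRNA.

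Upstream of the cyclases, 6 of 11 tested Gs-coupled receptors were higher and 1 was lower, against 32.6% and 32.7% of all genes tested. The receptors of the neuropeptide VIP moved in opposite directions: Vipr1 fell by 1.98 on the log2 scale (SE 0.11, edgeR adjusted p = 2.13e-10) from 110 ± 6.52 CPM (SD, n = 8) to 27.7 ± 6.02 CPM (SD, n = 6), and Vipr2 rose by 2.37 (SE 0.22) from 0.41 ± 0.06 to 2.16 ± 0.67 CPM. Gpr174, a lysophosphatidylserine receptor of lymphocytes, rose by 0.92 (SE 0.06) from 116 ± 7.11 to 219 ± 21.9 CPM. With the myeloid score as a covariate 3 receptors were called higher, and with the naive score 2, in fits that called 38.9% and 12.9% of all genes. Without CP CML mouse 2 or without BC CML mouse 5, 2 of these receptors were called lower. Of 4 tested G protein subunits, Gnas, which encodes the stimulatory subunit itself, rose by 0.64 (SE 0.04, edgeR adjusted p = 7.08e-10) from 413 ± 15.8 to 643 ± 46.1 CPM, and Gnai3, an inhibitory subunit, fell by 0.15 (SE 0.04). The log2 fold change of Gnas was 0.54 with the myeloid score and 0.40 with the naive score as a covariate (SE 0.13, edgeR adjusted p = 0.0527). In the latter fit Gnas did not pass, and Gnal passed at 1.53 (edgeR adjusted p = 0.0232). With the naive score as a covariate the log2 fold change of Gnai3 was -0.05 with an SE of 0.14 (adjusted p = 0.866), so 0 were called lower. Without BC CML mouse 5 the count of lower subunits was 2, and with no filter on low counts 2 were higher.

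Downstream, 6 of 10 tested genes for PKA subunits, PKA inhibitors and EPAC were higher and 2 were lower, against 32.6% and 32.7% of all genes tested. With the myeloid score as a covariate 2 were higher and 1 lower, and with the naive score 0 were higher and 1 lower. These fits called 38.9% and 12.9% of all genes. Rapgef4, which encodes EPAC2, fell by 3.19 on the log2 scale (SE 0.14, edgeR adjusted p = 3.81e-11) from 85.9 ± 12.4 CPM (SD, n = 8) to 9.33 ± 2.14 CPM (SD, n = 6), the largest difference in any of the lists in the main fit. With the naive score as a covariate the log2 fold change of Rapgef4 was -1.91, and that of Vipr2 was larger in size, at 3.59. Prkar1a, the main regulatory subunit of type I PKA, rose by 0.26 (SE 0.04) and the PKA inhibitor gene Pkig by 1.86 (SE 0.23), at means of 1.60 and 5.79 CPM. The log2 fold change of Pkig was 0.98 (edgeR adjusted p = 0.0406) with the myeloid score and 0.74 (edgeR adjusted p = 0.545) with the naive score. For Prkar1a these values were 0.17 and 0.09. Among the A-kinase anchoring proteins, which tether PKA, 3 of 10 were higher and 5 lower, with Akap7 up by 1.70 (SE 0.12) and Akap8l and Akap13 down, with log2 fold changes of -0.53 (SE 0.04) and -0.41 (SE 0.04). The anchoring protein counts were 1 higher and 3 lower with the myeloid score, and 1 and 1 with the naive score.

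Of the 11 CREB partners, coactivators and SIK kinases, 5 were higher and 3 lower. With the myeloid score as a covariate 2 were higher and 2 lower, and with the naive score 0 were higher and 0 lower, in a fit that called 12.9% of all genes. Sik2, a kinase that holds the CREB coactivators in the cytoplasm, had a log2 fold change of 0.39 (SE 0.04), Creb3l2 of 0.56 (SE 0.09), and the coactivator gene Crtc3 of -0.45 (SE 0.05). Of 11 tested textbook CREB target genes, 3 were higher and 2 lower, and 6 did not pass the test. Nr4a2 rose by 0.90 (SE 0.16) and Per1 by 0.56 (SE 0.12) with overlapping mice, and Icos, a costimulatory receptor gene, had a log2 fold change of -0.79 (SE 0.08) without overlap. With the myeloid score as a covariate 2 target genes were higher and 1 lower, with the naive score 0 were higher and 1 lower, and without CP CML mouse 6, 5 were called higher.

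**Figure D4:**
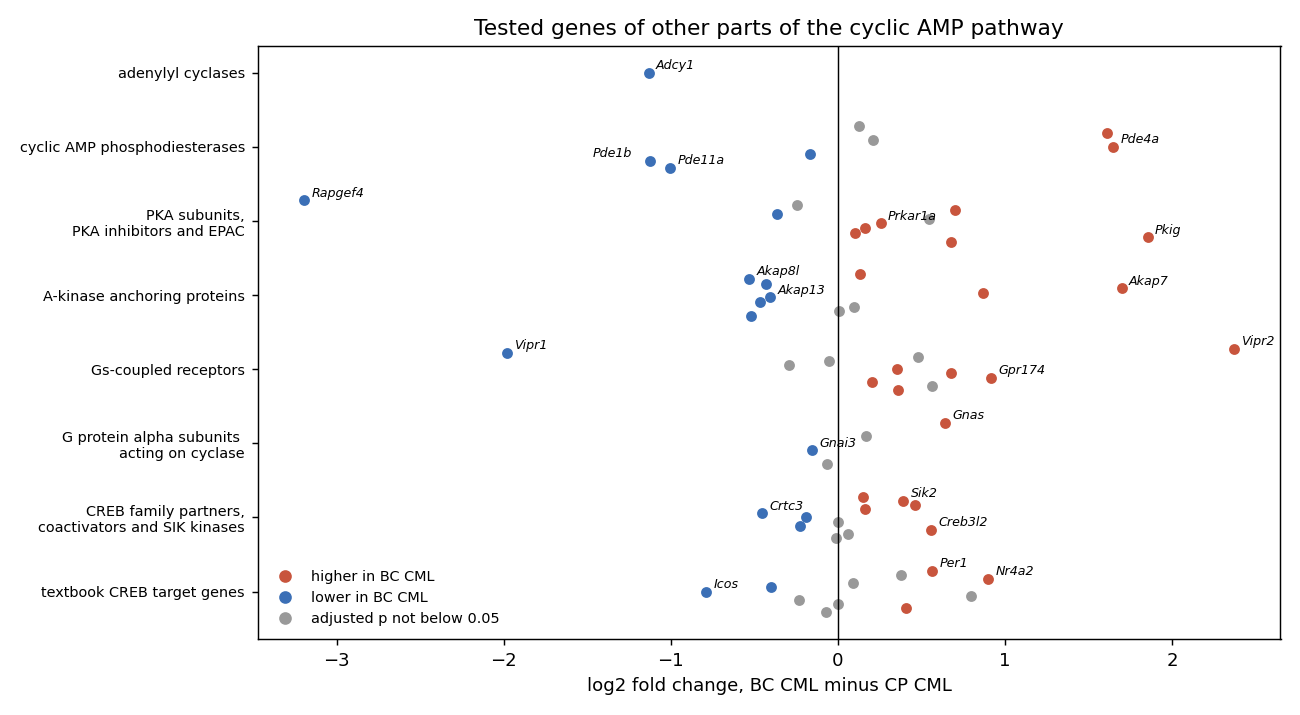
Log2 fold change of BC CML against CP CML (horizontal axis) for the 65 tested genes in 8 lists of the cyclic AMP pathway; red marks genes that rose, blue genes that fell (adjusted p below 0.05) and gray the others, and up to 3 genes with the lowest p-values in each list are labeled. Most lists hold genes of both directions, with Rapgef4 at -3.19 and Vipr2 at 2.37 at the ends.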

How the data were processed

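Spleen T cells of 14 mice were analyzed, 1 library per mouse. The authors trimmed reads of 101 bases with Trimmomatic and FASTP, aligned them to mm10 with STAR 2.6.0 and counted them per gene with HTSeq 0.11.1; the deposited values are raw counts. The annotation and strand setting of the counting are not given in the sources used here. Columns were matched to mice by name. Counts were filtered with filterByExpr, normalized by TMM and tested with edgeR 4.0.16 (quasi-likelihood, robust) in R 4.3.3, with Benjamini-Hochberg adjustment over all genes tested. CPM values carry the TMM factors; marker scores are means of log2 CPM (prior count 2). The SE comes from the fold change and the F statistic. On simulated counts for 12176 genes, 179 of 200 genes changed by 1 on the log2 scale were recovered with 8 other calls. The simulation held no shift in cell makeup and far fewer changed genes than the 65.2% called here, so these rates need not hold for the data. Libraries of a group differed by a chi-square of at least 3.01 per degree of freedom, more than counting error alone; this does not tell whether 2 libraries came from 1 mouse.

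The genes and lists were chosen with earlier results of these data known. The text names the 10 genes, Mir142, up to 3 genes per list with the lowest p-values among those past the threshold, and the 3 genes most alike to Adcy9 and to Pde3b. Outside this rule, marker genes, overlapping genes, untested cyclases, Pde2a and Gnal were named after their values were seen. Alternatives were the likelihood ratio test of the study's methods, DESeq2 1.42.0, other normalizations and filters, the replicate number as a block, marker scores as covariates, and leaving out each mouse.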

Additional observations from a re-analysis of the deposited data

Results flagged for a closer look

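Among 40 groups of values examined (the 10 genes, the marker scores and the total reads, each in CP CML and in BC CML), 1 held a mouse set apart from the others of its group, where chance gives about 2. BC CML mouse 2 had 16145537 reads in total and the next BC CML mouse 18319039, which puts 0.668 of the spread of that group between them. Without this mouse, 4 of the 10 genes were higher and 1 lower, as with all mice.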

How the results depend on the processing

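With RLE factors, library size alone, both other filters, the likelihood ratio test and DESeq2, 4 of the 10 genes were higher and 1 lower. Adjusted for the naive T cell score, 1 was higher (Pde3b) and 0 lower, among 1579 genes called in all, and with the myeloid score 4 were higher and 0 lower, among 4762. These scores follow the groups (correlation over the 14 mice of -0.953 and 0.824), and standard errors rose with them; the cause was not tested. Directions turned for Adcy7 (-0.12), Adcy6 (0.23), Pde4b (-0.0596) and Creb1 (-0.00395) with the naive score, and for Pde4b (-0.00899) and Pde4d (-0.0259) with the myeloid score, none past the threshold. Leaving out each mouse gave 4 higher genes throughout and 1 to 2 lower ones. Replicate numbers did not pair the mice, with correlations of deviations from -0.273 to 0.356 in 6 pairs. Of 6 BC CML mice, 2 correlated best with the CP CML mouse of their own number, in a search that left out CP CML mice 7 and 8. With the replicate block, 4 genes were higher and 1 lower, and the list of CREB partners had 3 higher genes in place of 5. Over the pathway lists, 31 of the alternative counts moved by more than 1.5 times and 337 did not. The share of Pde4b changed by -4.17 percentage points per length and by -5.16 by reads alone, and that of Pde7a by -3.87 and -2.69. The search of all annotated 3′UTRs gave the same matches in each of the 10 genes. Adcy9 is limited by depth, with as few as 30 reads in a library.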
